A study of Mus musculus with 6 samples.

Results

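The genes of glycolysis and the pentose phosphate pathway were compared between wild-type and Prmt6-/- mouse leukaemia cells. The set held 38 genes, made up of enzymes, regulators and lactate transporters of the 2 pathways and found by gene symbol among the 30037 genes of the deposited expression table, and all 38 passed the filter on low values and were tested. RNA came from L-GMP cells, the fraction of leukaemia cells with a granulocyte-monocyte progenitor phenotype, isolated by cell sorting out of leukaemic marrow in a mouse model of acute myeloid leukaemia (AML). The wild-type group (WT) and the Prmt6-/- group (labelled prmt6 KO) each had 3 libraries of poly(A) RNA, numbered 1 to 3, from AML mice aged 8 to 10 weeks. The labels do not name the oncogene that started the leukaemia, the strain, or how Prmt6 was deleted, and do not state whether each library stands for its own mouse. The p-values therefore measure the spread between these libraries, which may be technical.

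Glycolysis splits glucose into pyruvate, and its last steps and a lactate exporter let cells regenerate the cofactor that the pathway consumes. The pentose phosphate pathway leaves glycolysis at glucose 6-phosphate. Its oxidative branch makes NADPH for synthesis and redox defence, and its non-oxidative branch returns sugars to glycolysis or supplies ribose for nucleotides. Myeloid cells and many leukaemias are known for a high use of both pathways, and hypoxia-inducible factor 1 is a transcription factor that drives many glycolytic genes.

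Expression is given on the deposited log2 scale, which had been normalized between libraries. Sequencing depth is unknown, and the transformation behind this scale is not named. Low genes such as Pfkm (-0.52 against -1.40) and Aldoc (-0.89 against -1.69) differed less on it than in the authors' deposited log2 fold changes. The scale thus appears to draw genes of low level together, and their differences may be understated. A difference is the Prmt6-/- mean minus the wild-type mean, and a gene was called when its limma p-value, adjusted by Benjamini-Hochberg over all 15454 genes tested, was under 0.05. Library medians over the tested genes lay between 7.72 and 7.75. Prmt6 itself, the deleted gene (chromosome 3, 110246109 to 110250998, GRCm38), stood at 7.82, 7.60 and 7.41 in the wild type and at 5.42, 5.46 and 5.48 in the knockout, a difference of -2.16 (limma adjusted p = 3.57e-06), while the authors' deposited table gives a log2 fold change of -7.66. The most abundant progenitor markers were Elane and Ctsg, with Elane at 16.56 ± 0.15 (SD, n = 3) and 18.01 ± 0.03 and Ctsg at 14.84 ± 0.23 and 15.35 ± 0.05. Among 10 progenitor markers 2 rose and 2 fell, beside 33.0% of all genes tested that were called in either direction. Fcgr2b (-0.88) and Csf3r (-0.79) were the 2 that fell, Mpo differed by -1.11 without a call, and Cebpa was low, at 5.17 and 5.11. Of 5 stem cell and lymphoid markers outside that phenotype limma called 0, with 1 higher at an unadjusted p under 0.05; Flt3 was nevertheless abundant, at 10.56 and 10.49, while Slamf1 stood at 3.98 and 4.02 and Ly6a between 2.58 and 2.64.

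Of the 38 genes, 19 fell and 2 rose in the knockout, while 17 were not called. Among all genes tested 18.0% fell and 15.0% rose. The median difference of the 38 genes was -0.22, beside 0.01 over all genes tested. Abundant genes were called as lower more often: at a mean of at least 10, 47.6% of all 3560 genes were called, 31.3% fell, 16.2% rose and their median was -0.05, and 17 of the 23 members at that level fell and 0 rose, with a median of -0.23. Below that level 2 of 15 members fell and 2 rose, beside 14.0% and 14.7% of all such genes. The groups did not overlap for 25 of the 38 members, 21 of them lower and 4 higher, while 47.4% of all genes showed no overlap, 24.4% lower and 23.0% higher. The same 21 members passed in the authors' deposited table, with the same directions, where 17.5% of the tested genes were lower and 13.6% higher. With all members added up on the linear scale, they took 2.43%, 2.36% and 2.29% of the summed values in the wild-type libraries against 2.21%, 2.08% and 2.14% in the knockout libraries, so every knockout library lay below every wild-type library.

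**Figure D1:**
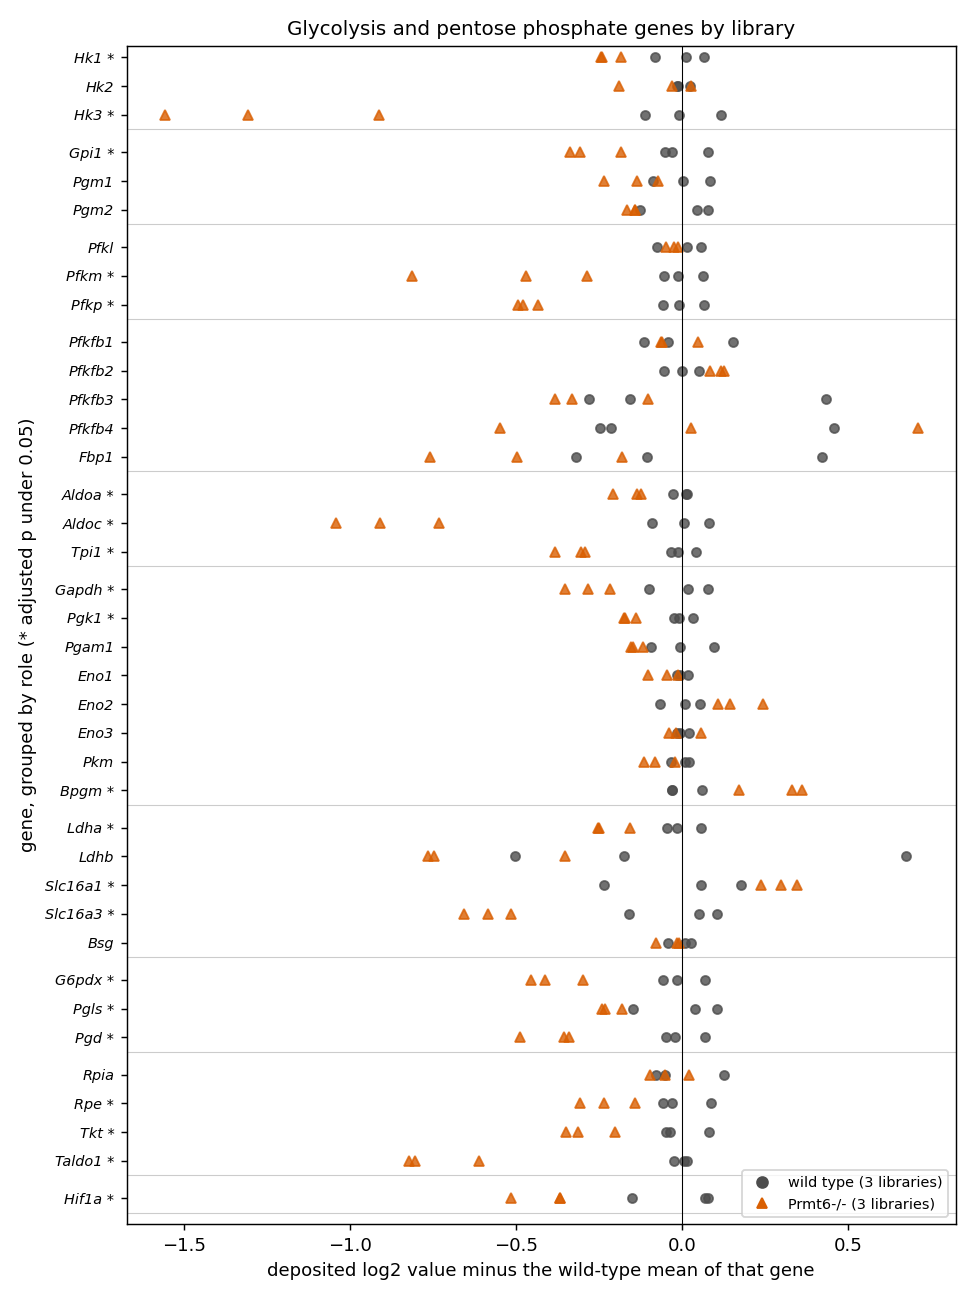
Deposited log2 value of each of the 38 genes in each library, relative to the wild-type mean of that gene (x axis, log2 units); genes are grouped by role, circles are wild-type and triangles Prmt6-/- libraries, and an asterisk marks an adjusted p under 0.05. Hk3, Aldoc and Taldo1 lay farthest to the left, while Bpgm and Slc16a1 were the 2 called genes to the right of 0.

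**Figure D2:**
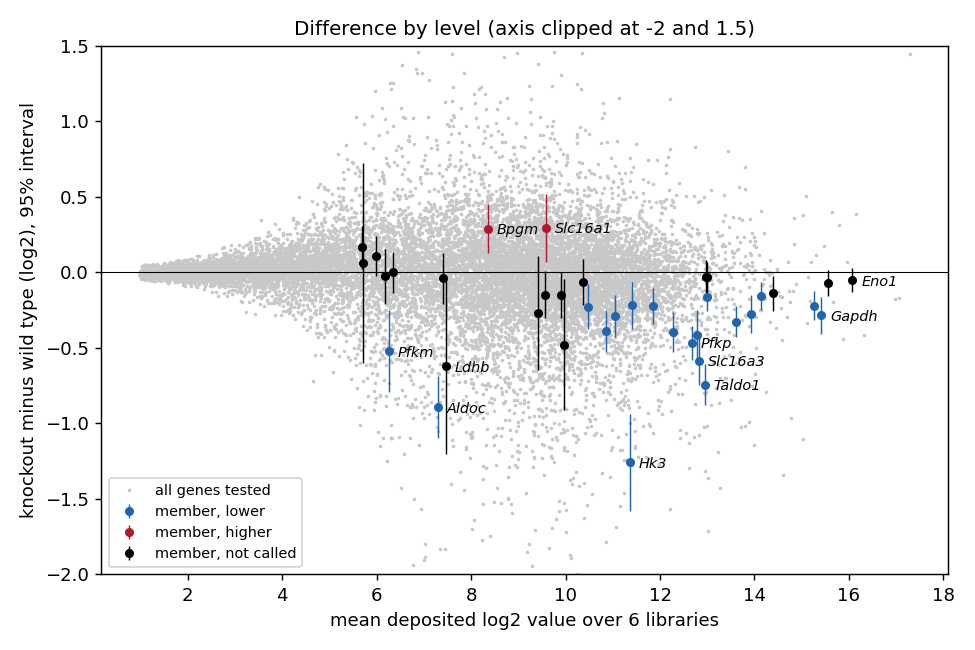
Difference between the genotypes (y axis, log2, 95% interval from limma) against the mean level over 6 libraries (x axis, log2) for the 38 members, with all 15454 tested genes as grey points and the y axis clipped at -2 and 1.5. Blue members fell, red members rose and black members were not called; all 23 members with a mean of at least 10 lay below 0.

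The 4 called members with the smallest p-values were Taldo1, Aldoc, Pfkp and Hk3, and the lactate transporters Slc16a3 and Slc16a1 were the pair of 1 family called in opposite directions. The 250 bases before their transcription start are shown to place these genes beside the short core that hypoxia-inducible factors bind. They are RefSeq sequences of GRCm38.p6, written 5′ to 3′ on the strand of the gene, with each ACGTG or GCGTG, on either strand (also read as CACGT or CACGC), in capitals. Gene positions in the other paragraphs are from GENCODE, whose starts can differ from those of RefSeq. By the GENCODE positions the Slc16a3 window lies inside the gene, and the Aldoc and Pfkp windows reach into theirs. The windows are Taldo1, chr7:141391910-141392159, plus strand; Aldoc, chr11:78322823-78323072, plus strand, the first of 2 starts listed; Pfkp, chr13:6648772-6649021, minus strand; Hk3, chr13:55021386-55021635, minus strand; Slc16a3, chr11:120948817-120949066, plus strand; and Slc16a1, chr3:104638414-104638663, plus strand.
Taldo1: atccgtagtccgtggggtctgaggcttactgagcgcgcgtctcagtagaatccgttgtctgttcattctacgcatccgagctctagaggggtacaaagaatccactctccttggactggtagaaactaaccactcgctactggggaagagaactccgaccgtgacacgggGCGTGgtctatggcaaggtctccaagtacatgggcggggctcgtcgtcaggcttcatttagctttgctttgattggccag
Aldoc: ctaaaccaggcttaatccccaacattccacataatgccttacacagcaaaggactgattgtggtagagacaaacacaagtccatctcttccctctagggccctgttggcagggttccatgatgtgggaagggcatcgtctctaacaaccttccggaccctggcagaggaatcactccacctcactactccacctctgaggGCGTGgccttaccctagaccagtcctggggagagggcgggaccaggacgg
Pfkp: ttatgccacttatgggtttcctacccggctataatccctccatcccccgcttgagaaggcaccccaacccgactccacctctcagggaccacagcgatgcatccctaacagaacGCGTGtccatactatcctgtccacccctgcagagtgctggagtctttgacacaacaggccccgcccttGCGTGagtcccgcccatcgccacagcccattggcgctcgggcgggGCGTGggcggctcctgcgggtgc
Hk3: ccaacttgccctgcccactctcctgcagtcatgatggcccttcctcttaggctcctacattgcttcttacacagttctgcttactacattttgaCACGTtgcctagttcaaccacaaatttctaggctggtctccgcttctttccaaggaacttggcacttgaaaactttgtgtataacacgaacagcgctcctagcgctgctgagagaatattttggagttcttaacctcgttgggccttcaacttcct
Slc16a3: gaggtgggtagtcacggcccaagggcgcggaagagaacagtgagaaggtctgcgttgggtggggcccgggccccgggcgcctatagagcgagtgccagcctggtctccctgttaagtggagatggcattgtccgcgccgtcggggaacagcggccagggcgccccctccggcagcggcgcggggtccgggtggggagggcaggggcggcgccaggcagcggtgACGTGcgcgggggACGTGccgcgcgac
Slc16a1: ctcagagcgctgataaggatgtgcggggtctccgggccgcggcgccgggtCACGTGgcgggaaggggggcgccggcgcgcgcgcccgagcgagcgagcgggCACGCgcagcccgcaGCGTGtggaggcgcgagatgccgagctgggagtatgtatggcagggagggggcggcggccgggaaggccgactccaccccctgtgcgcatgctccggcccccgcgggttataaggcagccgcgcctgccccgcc
The 5-base core occurred 1 time before Taldo1, Aldoc and Hk3, 3 times before Pfkp and 2 times before Slc16a3. The window of Slc16a1 held 4 matches, a pair of which overlap in CACGTG, the E-box bound by MYC and related factors. Promoter windows could be used for 35 members with 53 listed starts, of which 73.6% held the core, beside 38.6% of all 32851 windows in the table. The members' windows were also richer in G and C, at 58.2% beside 53.2%. The share was 75.0% for the 28 windows of members that fell and 73.9% for the 23 windows of members that were not called. CACGTG, which contains the core, stood in 11.3% of the members' windows and in 6.02% of all windows. A match in these letters is a description of the sequence and not evidence of binding.

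Hexokinases, which trap glucose in the cell as glucose 6-phosphate, differed in how far they moved. Hk3, the hexokinase of myeloid cells (chromosome 13, 55005985 to 55021385), stood at 11.98, 11.88 and 12.11 in the wild type and at 10.43, 10.68 and 11.08 in the knockout. Every knockout library lay below every wild-type library, and the third knockout library was the highest of its group. The difference was -1.26 (SE 0.141, limma adjusted p = 0.000224), the deepest of the 38 genes on the deposited scale. In the authors' deposited table its log2 fold change was -1.39, and those of Aldoc (-1.69) and Pfkm (-1.40) were deeper. Hk1, the broadly expressed isoenzyme, went from 11.95 ± 0.08 to 11.73 ± 0.03 (difference -0.22, adjusted p = 0.0120), a call that ended without knockout library 2 (0.0505) and after quantile normalization, where the difference was -0.13 (0.0780). Hk2, the inducible isoenzyme, averaged 10.41 ± 0.02 and 10.34 ± 0.11, its groups overlapped, and its 95% interval ran from -0.21 to 0.09 (adjusted p = 0.505). Per kilobase of transcript, Hk3 and Hk1 stood at 10.41 and 10.05 in the wild type and Hk2 at 8.35, and in the knockout the levels were 9.15, 9.83 and 8.29, so that Hk3 passed from above Hk1 to below it. These per-kilobase levels rest on the median length of GENCODE coding transcripts, which may not be the annotation used for counting.

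Within each library the log2 ratio of Hk3 to Hk1 was 0.02, 0.01 and 0.09 in wild-type libraries and -1.28, -1.03 and -0.69 in knockout libraries. Such a ratio does not move when a library is rescaled. An exact two-sided permutation test reached its lower limit for groups of 3, p = 0.1, or 0.229 after adjustment over the 16 ratios examined. Markers of mature neutrophils had a summed linear value of 1639 to 1897 in the wild type and of 1703, 1809 and 3326 in knockout libraries 1 to 3. Knockout library 3, the one with the highest Hk3 of its group, stood apart in these markers, with Ngp at 10.13 against 8.35 and 8.80 in the other knockout libraries. In that list of 10 genes 2 rose and 1 fell (30.0% called, beside 33.0% of all genes tested). Cxcr2 (1.18) and Camp (0.97) rose, and Mmp8 (-0.53) fell. Its 2 most abundant genes, Ngp and S100a8, were not called. They averaged 8.95 and 8.88 in wild-type cells and 9.09 and 8.74 in knockout cells, and Ly6g lay between 1.90 and 1.99. Of 10 monocyte and macrophage markers 1 rose and 3 fell (40.0% called, beside 33.0% of all genes tested). Ccr2 rose, with a difference of 1.07, and Csf1r (-1.83), Cd68 (-0.94) and Adgre1 (-0.33) fell. Their sum was 27680 to 31292 in the wild type and 26452 to 28081 in the knockout. That sum was made up mostly of Ly6c2, which stood at 14.46 and 14.48. The part of both marker lists in the members' values is taken up below. The part of the neutrophil, monocyte and macrophage markers in the Hk3 result was not tested, and in bulk RNA fewer cells of a type cannot be told apart from less RNA per cell.

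Glucose 6-phosphate isomerase, encoded by Gpi1 (chromosome 7, 34201330 to 34230336), fell from 14.06 ± 0.07 to 13.78 ± 0.08 (difference -0.28, SE 0.0553, limma adjusted p = 0.00489). The phosphoglucomutases Pgm1 and Pgm2, which link glucose 6-phosphate to glycogen, differed by -0.15 each and were not called (adjusted p = 0.138 and 0.116). These 2 symbols were exchanged between annotation releases, and the table carries older symbols for some other genes, so which enzyme each stands for is not settled and no position is given.

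Phosphofructokinase commits sugar to glycolysis, and its 3 subunit genes did not move alike. Pfkp, the platelet-type subunit (chromosome 13, 6579768 to 6648777), stood at 12.97, 12.85 and 12.89 in the wild type and at 12.41, 12.42 and 12.47 in the knockout. The groups were well apart and differed by -0.47 (SE 0.0484, limma adjusted p = 0.000147). Pfkl, the liver-type subunit, read 13.01, 13.05 and 12.91 against 12.94, 12.98 and 12.96, with overlapping groups and an interval of -0.14 to 0.08 (adjusted p = 0.694). Per kilobase the 2 genes stood at 11.13 and 11.09 in the wild type and at 10.66 and 11.06 in the knockout. Their log2 ratio within a library was -0.04, -0.20 and -0.02 in wild-type libraries and -0.53, -0.55 and -0.50 in knockout libraries, a shift of -0.44 (exact permutation p = 0.1). Pfkm, the muscle-type subunit, lay far lower and fell from 6.51, 6.47 and 6.58 to 5.71, 6.05 and 6.23 (difference -0.52, adjusted p = 0.00925). For this low gene the authors' deposited table gives a log2 fold change of -1.40.

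**Figure D3:**
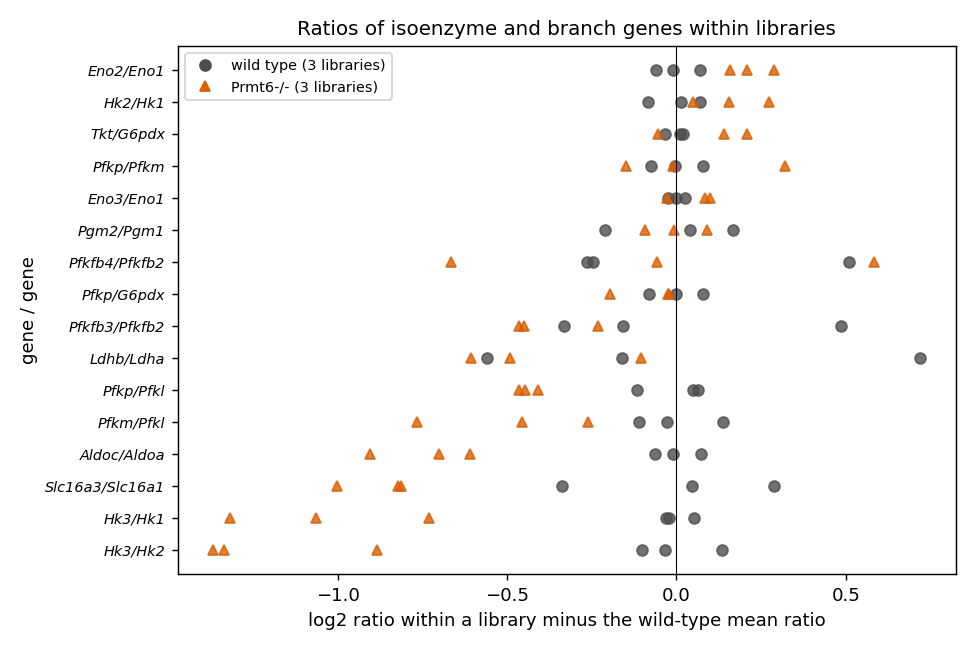
Log2 ratio of 2 genes within each library, relative to its wild-type mean (x axis), for 16 pairs of isoenzymes or branch genes; circles are wild-type and triangles Prmt6-/- libraries. The groups did not overlap for 7 pairs, with Hk3/Hk2 shifted by -1.20 and Slc16a3/Slc16a1 by -0.88, while Pfkp/Pfkm and Pgm2/Pgm1 overlapped.

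The genes that set the level of fructose 2,6-bisphosphate, the activator of phosphofructokinase, were not called. The bifunctional enzymes Pfkfb1, Pfkfb2, Pfkfb3 and Pfkfb4 differed by -0.02, 0.11, -0.27 and 0.06, and Fbp1, the gluconeogenic phosphatase that opposes phosphofructokinase, by -0.48 (limma adjusted p = 0.0872). At an unadjusted p under 0.05 Fbp1 was the 1 gene of these 5 to pass, and the authors' deposited table called 0 of them. Fbp1 read 9.88, 10.09 and 10.62 in wild-type libraries and 9.44, 9.70 and 10.02 in knockout libraries, and single libraries moved it both ways. It passed without wild-type library 1 (limma adjusted p = 0.0436) or knockout library 3 (0.0474), while without wild-type library 3 the difference shrank to -0.27 (0.232) and without knockout library 1 to -0.34 (0.267). Pfkfb3, the inducible isoenzyme, read 9.28, 9.40 and 9.99 against 9.18, 9.23 and 9.46, and its difference was -0.05 without wild-type library 3. The Pfkfb4 difference ranged from -0.26 to 0.37 as single libraries were left out. In Fbp1 and Pfkfb3 the third library of each genotype was the highest, and the groups overlapped.

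That feature was shared by every member with a wide spread. The 6 members with an SD over 0.25 in either group were Hk3, Pfkm, Pfkfb3, Pfkfb4, Ldhb and Fbp1. In all 6, library 3 was the highest in both genotypes. This threshold was chosen after the values were seen, and the share over all genes of such a spread is not given. Ldhb, the heart-type lactate dehydrogenase subunit, read 7.28, 7.61 and 8.46 in wild-type libraries and 7.02, 7.04 and 7.43 in knockout libraries. Pfkfb4 read 5.47, 5.43 and 6.14 against 5.71, 5.13 and 6.39. The progenitor marker Mpo was likewise highest in library 3, with 15.27, 15.19 and 16.29 against 13.34, 14.37 and 15.72. Elane and Ctsg were highest in wild-type library 3 (16.72 and 15.08) but lowest in knockout library 3. The summed mature neutrophil markers were highest in knockout library 3 but not in wild-type library 3. Sums of the progenitor, B cell, and T and NK cell markers peaked in library 3 of both genotypes. They reached 258696, 1617 and 2737 for wild-type library 3, and 389016, 769 and 1494 for knockout library 3. Monocyte and macrophage markers had their lowest sum in library 3 of both genotypes. Erythroid, megakaryocyte, and stem cell and lymphoid sums peaked in other libraries. The part of these markers in the members' values was not tested.

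Aldolase, which cleaves fructose 1,6-bisphosphate, and triose phosphate isomerase, which interconverts the 2 products, were lower in the knockout for all 3 genes. Of all genes tested 18.0% fell, and of those with a mean of at least 10, as for Aldoa and Tpi1, it was 31.3%. Aldoc, the brain-type aldolase (chromosome 11, 78322968 to 78327781), stood at 7.76, 7.84 and 7.66 in the wild type and at 6.71, 6.84 and 7.02 in the knockout, so that Aldoc fell by 0.89 (SE 0.0899, limma adjusted p = 0.000129). The authors' deposited table gives it a log2 fold change of -1.69. Aldoa, the main isoenzyme with a wild-type level per kilobase of 13.65 against 6.59 for Aldoc, moved far less, from 14.22 ± 0.02 to 14.06 ± 0.05 (difference -0.16, adjusted p = 0.0175). The Aldoa call ended when wild-type library 2 (adjusted p = 0.0648) or knockout library 2 (0.0844) was left out, after quantile normalization (0.749, difference -0.02) and after intensity-dependent centring (0.177, difference -0.09). Tpi1 (chromosome 6, 124810586 to 124814296) read 13.80, 13.73 and 13.75 against 13.47, 13.38 and 13.46, with no overlap and a difference of -0.33 (adjusted p = 0.000627), or -0.20 after quantile normalization.

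The later steps of glycolysis held the most abundant transcripts, and the differences of these 8 genes ran from -0.28 to 0.29, with a median of -0.06. Gapdh, the glyceraldehyde 3-phosphate dehydrogenase often used as a reference gene (chromosome 6, 125161715 to 125166467), read 15.57, 15.63 and 15.45 in wild-type libraries and 15.33, 15.27 and 15.20 in knockout libraries. All knockout values lay below all wild-type values, and Gapdh fell by 17.9% (log2 difference -0.28, SE 0.0539, limma adjusted p = 0.00371). Pgk1, phosphoglycerate kinase, went from 13.07 ± 0.03 to 12.91 ± 0.02 (difference -0.16, adjusted p = 0.0160). Its call ended without knockout library 2 (0.0657), after quantile normalization (0.485, difference -0.04) and after intensity-dependent centring (0.0802, difference -0.10).

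The later enzymes were not called. Pgam1, the phosphoglycerate mutase, differed by -0.14 (adjusted p = 0.0665). It passed without wild-type library 3 (limma adjusted p = 0.0211), differed by -0.09 without wild-type library 1 (0.177) and by 0.02 after quantile normalization (0.813). Eno1, the main enolase, averaged 16.10 ± 0.02 and 16.05 ± 0.05 with overlapping groups, and its interval of -0.13 to 0.03 leaves room for a small difference (adjusted p = 0.299). Pkm, the pyruvate kinase gene, stood at 15.59 ± 0.03 and 15.52 ± 0.05 (adjusted p = 0.181). The minor enolases Eno2 and Eno3 differed by 0.17 (adjusted p = 0.0745) and 0.00 (adjusted p = 0.999), and Eno2 passed in limma without the mean-variance trend (0.0493). Gapdh, Ldha and other abundant glycolytic genes have processed pseudogenes, and reads shared with such copies make their values uncertain.

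Bpgm was one of the 2 members that rose. It encodes bisphosphoglycerate mutase, which diverts a lower-glycolysis intermediate to 2,3-bisphosphoglycerate and is best known from red cells (chromosome 6, 34476207 to 34505613). It stood at 8.18, 8.18 and 8.27 in wild-type libraries and 8.58, 8.55 and 8.39 in knockout libraries, with no overlap, and Bpgm rose by 0.29 (SE 0.0714, limma adjusted p = 0.0132). The call ended without knockout library 2 (adjusted p = 0.0545). Erythroid markers were at the low end of the scale, with 10 of 10 under a mean of 5 and a summed linear value of 93.8 to 95.3 in the wild type and 96.8 to 100.6 in the knockout. The highest of these means were 4.63 and 4.70 for Ermap and 4.30 and 4.52 for Klf1, of which Klf1 rose by 0.22. Klf1 was the 1 erythroid marker called of 8 tested (12.5%, beside 33.0% of all genes tested). At an unadjusted limma p under 0.05, 2 were lower, Hbb-bs at -0.07 and Hba-a2 at -0.05.

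Genes of lactate handling split by transporter. Lactate dehydrogenase A, encoded by Ldha, turns pyruvate into lactate and fell from 15.37 ± 0.05 to 15.15 ± 0.05 (difference -0.22, SE 0.0435, limma adjusted p = 0.00455), a call that ended after quantile normalization (0.0647) and intensity-dependent centring (0.0672). Ldhb differed by -0.62 with overlapping groups (adjusted p = 0.0975). It passed without wild-type library 1 (limma adjusted p = 0.0304, difference -0.87), and without wild-type library 3 the difference was -0.28 (0.189). Slc16a3, the low-affinity lactate exporter MCT4 (chromosome 11, 120948480 to 120960868), read 13.22, 13.17 and 12.96 in wild-type libraries and 12.53, 12.46 and 12.60 in knockout libraries, with no overlap. Slc16a3 fell by 33.3% (log2 difference -0.58, SE 0.0725, limma adjusted p = 0.000382). Slc16a1, the high-affinity transporter MCT1 (chromosome 3, 104638668 to 104658462), read 9.49, 9.20 and 9.61 against 9.67, 9.78 and 9.73. All 3 knockout values lay above the wild-type values, and the difference was 0.29 (SE 0.0992, adjusted p = 0.0483).

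The Slc16a1 call was fragile. It ended when wild-type library 1 (limma adjusted p = 0.0765) or 2 (0.114, difference 0.18) was left out, without knockout library 1 (0.0806), 2 (0.140) or 3 (0.105), without the filter on low values (0.0525) and with no mean-variance trend in limma (0.0789). Slc16a1 is the 1 member placed on chromosome 3, where it lies 5.59 Mb from the deleted gene, and whether sequence near Prmt6 differs between the genotypes was not tested. The log2 ratio of Slc16a3 to Slc16a1 within a library was 3.73, 3.97 and 3.35 in wild-type libraries and 2.86, 2.68 and 2.87 in knockout libraries, a shift of -0.88 without overlap (exact permutation p = 0.1). Slc16a3 per kilobase stayed the higher of the pair, at 11.28 against 7.58 in the knockout. Bsg, the chaperone basigin that carries both transporters to the membrane, stood at 13.01 ± 0.04 and 12.98 ± 0.04, with an interval of -0.13 to 0.07 (adjusted p = 0.612).

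In the pentose phosphate pathway 6 of 7 genes fell, with a median difference of -0.29. Among all genes tested 18.0% fell, and among those with a mean of at least 10 it was 31.3%. Of these 7 genes, all but Rpia had a mean of at least 10. The oxidative branch fell at each of its steps. G6pdx, the X-linked glucose 6-phosphate dehydrogenase that opens the pathway (chromosome X, 74409483 to 74429194), read 11.03, 10.99 and 11.11 in wild-type libraries and 10.75, 10.59 and 10.63 in knockout libraries, a difference of -0.39 (SE 0.0616, limma adjusted p = 0.00146). Pgd, the 6-phosphogluconate dehydrogenase that makes the second NADPH (chromosome 4, 149149991 to 149166771), read 12.55, 12.43 and 12.46 against 12.12, 11.99 and 12.14, likewise a difference of -0.39 (adjusted p = 0.000926). In both genes the groups were clear of each other. Pgls, the lactonase between them, differed by -0.22 (adjusted p = 0.0375). Its call ended without wild-type library 1 (0.105) or 2 (0.133), without knockout library 1 (0.0940), 2 (0.110) or 3 (0.0622), after quantile normalization (0.254, difference -0.12), after intensity-dependent centring (0.116) and without trend (0.0521).

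In the non-oxidative branch Taldo1 stood out. It encodes transaldolase (chromosome 7, 141392199 to 141402968) and read 13.33, 13.30 and 13.33 in wild-type libraries and 12.51, 12.50 and 12.71 in knockout libraries. The wild-type values were tightly grouped, and Taldo1 fell by 40.3% (log2 difference -0.75, SE 0.0603, limma adjusted p = 4.53e-05), the smallest adjusted p of the 38 genes. Tkt, transketolase, the partner enzyme, went from 11.19 ± 0.07 to 10.90 ± 0.08 (difference -0.29, adjusted p = 0.00661), or -0.19 after quantile normalization. Rpe, ribulose phosphate epimerase, differed by -0.23 (adjusted p = 0.0257), and that call ended without wild-type library 3 (0.0767), after quantile normalization (0.0864, difference -0.15) and without knockout library 1 (0.0849) or 3 (0.0651). Rpia, the ribose phosphate isomerase that leads to nucleotides, read 7.54, 7.34 and 7.37 against 7.37, 7.32 and 7.44, with overlapping groups (adjusted p = 0.718). The ratio of Tkt to G6pdx overlapped between genotypes, with a shift of 0.10, as did that of Pfkp to G6pdx, with -0.08.

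Hif1a, which encodes the oxygen-regulated subunit of hypoxia-inducible factor 1 (chromosome 12, 73901375 to 73947530), read 13.07, 12.85 and 13.08 in wild-type libraries and 12.49, 12.64 and 12.63 in knockout libraries. The groups did not overlap, and the difference was -0.42 (SE 0.0723, limma adjusted p = 0.00233). Among 25 genes of the HIF pathway and genes known to be induced by hypoxia, 16 changed, in both directions: 10 rose and 6 fell (64.0%, beside 33.0% of all genes tested). These 25 genes lie on both sides of a mean of 10, and 47.6% of all genes with a mean of at least 10 were called. The 4 with the smallest p-values were Pdk1, a kinase that restrains pyruvate dehydrogenase, at -0.64 (adjusted p = 0.000127), the peptide hormone gene Adm at 0.57 (0.000134), the repressor Bhlhe40 at 0.48 (0.000258) and the prolyl hydroxylase Egln3, which marks HIF for destruction, at 0.39 (0.000600). Regulators among those that rose also included Vhl at 0.22, Hif1an at 0.36, Arnt at 0.22 and Epas1 at 0.47. Ddit4 rose by 0.55 and P4ha2 by 0.36. Besides Pdk1, the genes that fell were Ero1l at -0.67, Bnip3l at -0.43, Ndrg1 at -0.30, Car9 at -0.29 and Bnip3 at -0.19. These regulators, Ddit4, P4ha2 and the genes that fell, other than Pdk1, were named after their values were seen. The glucose transporter Slc2a3 rose by 0.42, and Slc2a1 differed by -0.02 (95% interval -0.17 to 0.14).

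Glycogen metabolism, which feeds glucose 6-phosphate, had 2 genes higher and 7 lower of 14 tested (64.3%), with a median of -0.16. Of all genes tested 33.0% were called, and of those with a mean of at least 10 it was 47.6%. Phkg1, a catalytic subunit of phosphorylase kinase, fell by 0.87 (limma adjusted p = 7.20e-05), the phosphorylase Pygl by 0.30 (0.00123), or by 0.20 after quantile normalization, Phkg2 by 0.36 (0.00305) and the regulatory subunit Phkb by 0.33 (0.00580). Of 29 tested genes for adjoining enzymes and regulators, 1 rose and 7 fell (27.6%), a share below that of all genes, and the median was 0.00. Gpd2, the mitochondrial glycerol phosphate dehydrogenase, fell by 0.43 (adjusted p = 0.000480), the sugar mutarotase Galm by 0.34 (0.00786) and the ADP-dependent glucokinase Adpgk by 0.26 (0.00891). Pgm3, a phosphoglucomutase of hexosamine synthesis, rose by 0.29 (0.00276). The tissue-restricted relatives Pklr and Fbp2 did not pass the filter on low values.

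**Figure D4:**
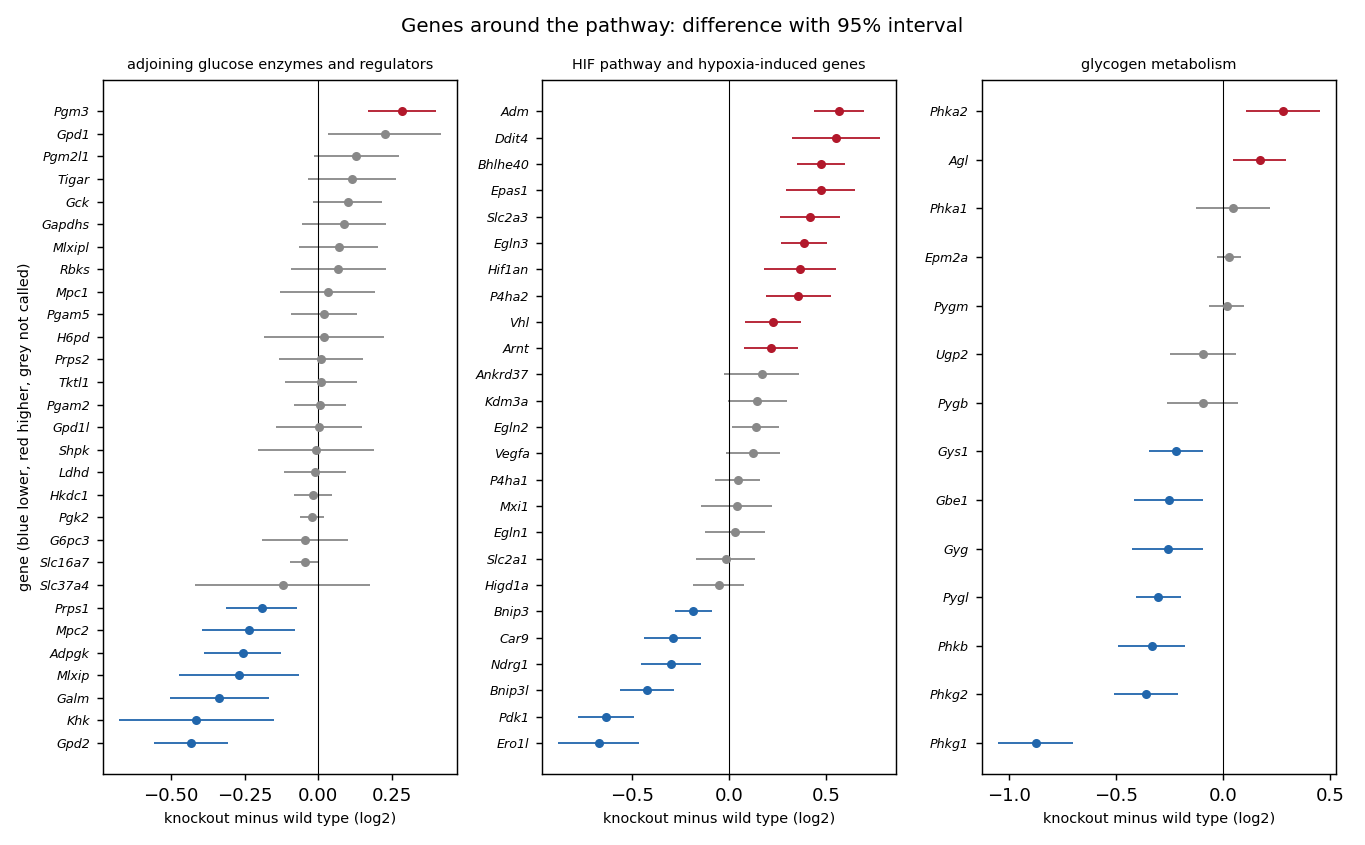
Difference between Prmt6-/- and wild type (x axis, log2, points with 95% intervals from limma, 3 libraries per group) for the tested genes of 3 lists around the pathway; blue genes fell, red genes rose and grey genes were not called. The HIF list has 10 red and 6 blue genes, the glycogen list 2 and 7, and the list of adjoining genes 1 and 7.

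Markers of further cell types were counted in the same libraries. Of the tested B cell markers 2 of 4 fell, with differences of -1.15 for Cd79b and -1.53 for Ighm, and with a summed linear value of 1273 to 1617 in the wild type and 492 to 769 in the knockout. Of 5 tested T and NK cell markers, Cd3d rose by 0.44 and Nkg7 fell by 1.36 (40.0% called, beside 33.0% of all genes tested). The Nkg7 groups overlapped, at 10.68, 10.46 and 11.39 against 8.95, 9.02 and 10.48. The sums of this list were 1470 to 2737 in the wild type and 569 to 1494 in the knockout. Of its 8 genes, 6 had a mean under 5, and Trbc2 was listed at 0. Limma called 0 of 4 tested megakaryocyte markers, also at an unadjusted p under 0.05, and their sums were 57.7 to 60.6 and 60.2 to 61.5; the most abundant was Itga2b, at 5.43 and 5.48. Their part in the differences of the 38 genes was not tested.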

How the data were processed

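Poly(A) RNA of L-GMP cells was sequenced in 6 libraries, 3 wild-type and 3 Prmt6-/-. Trim Galore, kallisto, HOMER and the GRCm38 build appear in the submitters' processing notes. Per the file headers, a HOMER differential expression command wrote the table from read counts. The values deposited by the authors are log2 values, already normalized between samples, from -1.97 to 18.0, whose transformation is not named in the file. For each gene the authors' table adds a log2 fold change with its p-value, raw and adjusted, and does not say which test made them. Which annotation the reads were counted on is not stated in these sources. Read depth is unknown, so no counting interval is given.

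One row without a gene name (0.00333% of rows) was left out. Of 30037 genes, 7932 were listed at 0 throughout. A gene entered the test if 3 or more libraries had a value of 1 or higher. The test was limma 3.58.1 in R 4.3.3 (mean-variance trend, two-sided, Benjamini-Hochberg adjustment). Intervals are 95%. The fit was also run on simulated data with noise drawn independently for each library, which cannot give the error rate in the real libraries. Members and lists were chosen with earlier results of these data known. All members were to be named, with the 4 genes of smallest p in each neighbouring list and the 2 most abundant of each marker list; other genes were named after their values were seen, and one gene of this rule is not reported here. Positions are from GENCODE M21 (GRCm38), and older symbols were matched through RefSeq synonyms. Promoters of 37 members were found by symbol, and those of Pgm1 and Pgm2 were left out. Alternatives were quantile normalization, intensity-dependent centring, other filters, a pseudocount of 1 on linear values, no trend, a replicate block, leaving out each library and the authors' deposited test.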

Additional observations from a re-analysis of the deposited data

How the results depend on the processing

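Across 14 alternatives the 38 genes gave 491 values with the same direction and side of the threshold, or with no call in either, 32 that lost the call, 9 that gained one and 0 that turned a called direction. Of the 21 called genes, 13 kept their call in every alternative, all of them lower in the knockout: Hk3, Gpi1, Pfkp, Pfkm, Aldoc, Tpi1, Gapdh, Slc16a3, G6pdx, Pgd, Tkt, Taldo1 and Hif1a. The number lower was 19 and ranged from 13 after quantile normalization to 22 with the replicate block. The number higher was 2; it was 1 without the filter on low values and 1 with the replicate block, and ranged from 0 to 2 when 1 library was left out. The median difference of -0.22 became -0.14 after quantile normalization and -0.16 after intensity-dependent centring, while the median over all genes stayed between 0.00 and 0.01 in these fits; the cause was not tested. Quantile normalization moved the median of all genes with a mean of at least 10 from -0.05 to 0.04. The labels link same-numbered libraries by the number alone and do not state whether they also shared a batch or preparation. Their deviations from the group means correlated at 0.09, 0.07 and 0.17 across genes, which are not independent. Pairs of unlike number lay between -0.13 and 0.05, so each library correlated best with its own number. A factor shared by same-numbered libraries was not tested. With the block 22 genes fell and 1 rose, with Fbp1 (adjusted p = 0.00156), Ldhb (0.0121) and Pgam1 (0.0368) gained and Slc16a1 lost (0.0522). Unknown depth leaves the precision of the low genes, such as Pfkfb4 and Eno2, undetermined.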
